A study of Mus musculus and Bos taurus with 26 samples.

Results

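The GATA transcription factors are a family of 6 mouse genes, Gata1 to Gata6, taken by symbol from the deposited expression values. They were 6 of 27988 mouse genes, and 5 bovine genes, GATA2 to GATA6, were found by the upper-case symbols among 21577; bovine GATA1 was not analysed here. GATA factors bind DNA through zinc fingers that read a short sequence with GATA at its core. Gata1, Gata2 and Gata3 are known mainly from blood: Gata1 drives red cell and megakaryocyte genes, Gata2 maintains blood stem and progenitor cells, and Gata3 directs T cells. Gata2 and Gata3 also act in the trophectoderm, the outer layer that forms the placenta, while Gata4, Gata5 and Gata6 act in primitive endoderm, gut and heart. The embryos studied here were taken before any of these tissues exists.

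PolyA RNA of whole preimplantation embryos was sequenced in 26 libraries, 2 in each of 11 mouse and 2 bovine groups. The title of the series asks whether the histone deacetylases HDAC1 and HDAC2 are needed for zygotic genome activation, the first transcription from the embryo's own genome. Late 2-cell mouse embryos of 4 kinds, 36 h after fertilization, served as controls: zygotes injected with water, with Hdac1 wild-type (WT) mRNA or with Hdac2 WT mRNA, and uninjected embryos cultured in KSOM medium with DMSO, the solvent of the drug. Against them stood late 2-cell embryos injected as zygotes with mutant Hdac1 or mutant Hdac2 mRNA, and embryos kept from the zygote stage in FK228 at 50 nM (also called romidepsin, a drug that blocks class I deacetylases). A pair of further late groups received Hdac1 mutant mRNA as zygotes and a second injection into both blastomeres of the early 2-cell embryo, either of water or of Kdm5b mRNA, whose product removes methyl groups from lysine 4 of histone H3. Early 2-cell embryos, at 24 h, were injected with Hdac1 WT or Hdac1 mutant mRNA. Bovine 8/16-cell embryos, at 72 h, were kept in BO-IVC medium holding DMSO or treated with 50 nM FK228 from the zygote stage. The labels name neither the mutations nor a mouse strain, and injected mRNA adds to the embryo's own Hdac1 and Hdac2 rather than replacing it. Below, the 5 late groups with mutant mRNA or FK228 are called the HDAC-perturbed groups.

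Values are FPKM, fragments per kilobase of transcript and of library size, so levels of different genes can be set side by side. Absolute depth is unknown from FPKM; relative depth ran from 0.660 (Hdac1 mutant early replicate 2) to 1.31 (Hdac1 mutant then Kdm5b replicate 1) of the median mouse library and from 0.917 to 1.07 in cattle. Replicates correlated across genes with r from 0.933 (Hdac1 mutant late) to 0.987. Injected genes stood out where the labels place them: Hdac1 was at 2833 ± 179 FPKM after WT and 4782 ± 240 after mutant mRNA against 90.8 ± 2.05 after water (SD, n = 2), Hdac2 at 1618 ± 222 and 2367 ± 107 against 22.8 ± 5.10, and Kdm5b at 616 ± 31.5 against 67.6 ± 8.96 after the second injection of water. Oocyte and early embryo markers were plentiful in every mouse library, but their sums differed between the sets of groups. They were at 2020 to 2206 FPKM in early, 785 to 1144 in late control and 436 to 595 in HDAC-perturbed libraries. In bulk RNA of whole embryos, fewer cells holding a transcript and less of it per cell cannot be told apart.

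Promoters of some members are shown first. Gata1 is the only one of them that was lower in the HDAC-perturbed groups, so base composition cannot be compared with direction. The sequences are RefSeq's on GRCm38.p6 and run from 250 bases before to 50 bases after the start of transcription. Entries of Gata1, Gata2, Gata3 and Gata5 were used. Promoters of Gata4 and Gata6 were not analysed here, so the CG counts below do not cover them. CG pairs, the sites of DNA methylation in mammals, are in capitals and each sequence is read along the gene's own strand. The Gata1 window is chrX:7967861-7968160 on the minus strand, the upstream Gata2 window chr6:88193641-88193940 and the downstream Gata2 window chr6:88198414-88198713, both on the plus strand, the Gata3 window chr2:9878551-9878850 and the Gata5 window chr2:180334630-180334929, both on the minus strand.
Gata1: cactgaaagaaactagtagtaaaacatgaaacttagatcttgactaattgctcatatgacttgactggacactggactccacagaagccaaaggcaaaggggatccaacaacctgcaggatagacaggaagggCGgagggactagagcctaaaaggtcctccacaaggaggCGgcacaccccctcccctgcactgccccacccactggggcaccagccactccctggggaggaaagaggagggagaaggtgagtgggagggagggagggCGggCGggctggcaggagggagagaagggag
Gata2, upstream start: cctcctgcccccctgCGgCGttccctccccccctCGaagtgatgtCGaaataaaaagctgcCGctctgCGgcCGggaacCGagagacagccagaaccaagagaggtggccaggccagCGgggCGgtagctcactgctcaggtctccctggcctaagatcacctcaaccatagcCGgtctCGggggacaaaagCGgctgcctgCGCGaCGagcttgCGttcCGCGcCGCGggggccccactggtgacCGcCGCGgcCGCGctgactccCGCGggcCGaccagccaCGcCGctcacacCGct
Gata2, downstream start: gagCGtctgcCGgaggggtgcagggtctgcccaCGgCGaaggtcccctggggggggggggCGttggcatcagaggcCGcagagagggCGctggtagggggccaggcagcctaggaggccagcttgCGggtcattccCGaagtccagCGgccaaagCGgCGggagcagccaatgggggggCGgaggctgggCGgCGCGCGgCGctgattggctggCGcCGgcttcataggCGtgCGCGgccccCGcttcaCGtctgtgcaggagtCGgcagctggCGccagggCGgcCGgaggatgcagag
Gata3: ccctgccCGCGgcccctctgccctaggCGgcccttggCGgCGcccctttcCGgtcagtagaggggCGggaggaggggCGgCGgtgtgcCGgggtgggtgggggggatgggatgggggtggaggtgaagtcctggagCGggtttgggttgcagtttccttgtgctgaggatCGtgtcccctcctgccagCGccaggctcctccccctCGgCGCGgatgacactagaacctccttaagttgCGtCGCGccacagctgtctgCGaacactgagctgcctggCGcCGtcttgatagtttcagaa
Gata5: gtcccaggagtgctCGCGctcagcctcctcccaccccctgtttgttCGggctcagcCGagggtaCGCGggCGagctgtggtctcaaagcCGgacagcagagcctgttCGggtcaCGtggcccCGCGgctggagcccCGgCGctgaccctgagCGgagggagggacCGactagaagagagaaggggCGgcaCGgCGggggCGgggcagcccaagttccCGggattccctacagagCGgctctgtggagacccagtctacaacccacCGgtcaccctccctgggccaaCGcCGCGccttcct
The Gata1 window held 4 CG pairs, and 31.4% of the 32851 mouse promoters of the same length held fewer; the median was 7. The windows of the other members shown were richer, with 32 and 29 at the Gata2 starts, 22 at Gata3 and 26 at Gata5. Of all promoters 76.9% to 90.5% held fewer than these. The Gata1 and Gata3 windows lie inside the annotated genes, which reach upstream to 7978071 and 9890034, so other starts may exist. The GATA motif, taken as the letters GATA with A or T before and A or G after, was searched on both strands. They matched 1 time in the Gata3 window and 0 times in the Gata1, Gata2 and Gata5 windows, and 29.8% of all promoters held at least 1 match. A match is a string of letters and says nothing of binding.

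The members fell into 2 patterns in the late 2-cell embryo. In control embryos Gata1 and Gata4 were the GATA factors of high level, and Gata2, Gata3, Gata5 and Gata6 were low or listed at 0. In every HDAC-perturbed group, the late embryos with Hdac1 or Hdac2 mutant mRNA or FK228, Gata2 was the highest by group mean and Gata4 the next, while both Gata1 and Gata4 were below their level in every late control. Of the summed FPKM of the 6 genes, Gata1 and Gata4 together held 96.5% to 98.6% in the 8 late control libraries and 11.8% to 32.0% in the 10 HDAC-perturbed libraries. Gata2 held 0.623% to 2.52% in the first and 56.7% to 80.1% in the second. The sum itself ran from 129 to 235 FPKM in late controls and from 85.4 to 223 in HDAC-perturbed libraries, so its ranges overlapped while the makeup did not. The Hdac1 mutant libraries among these were in view when the family was chosen, and the shares are a description.

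**Figure D1:**
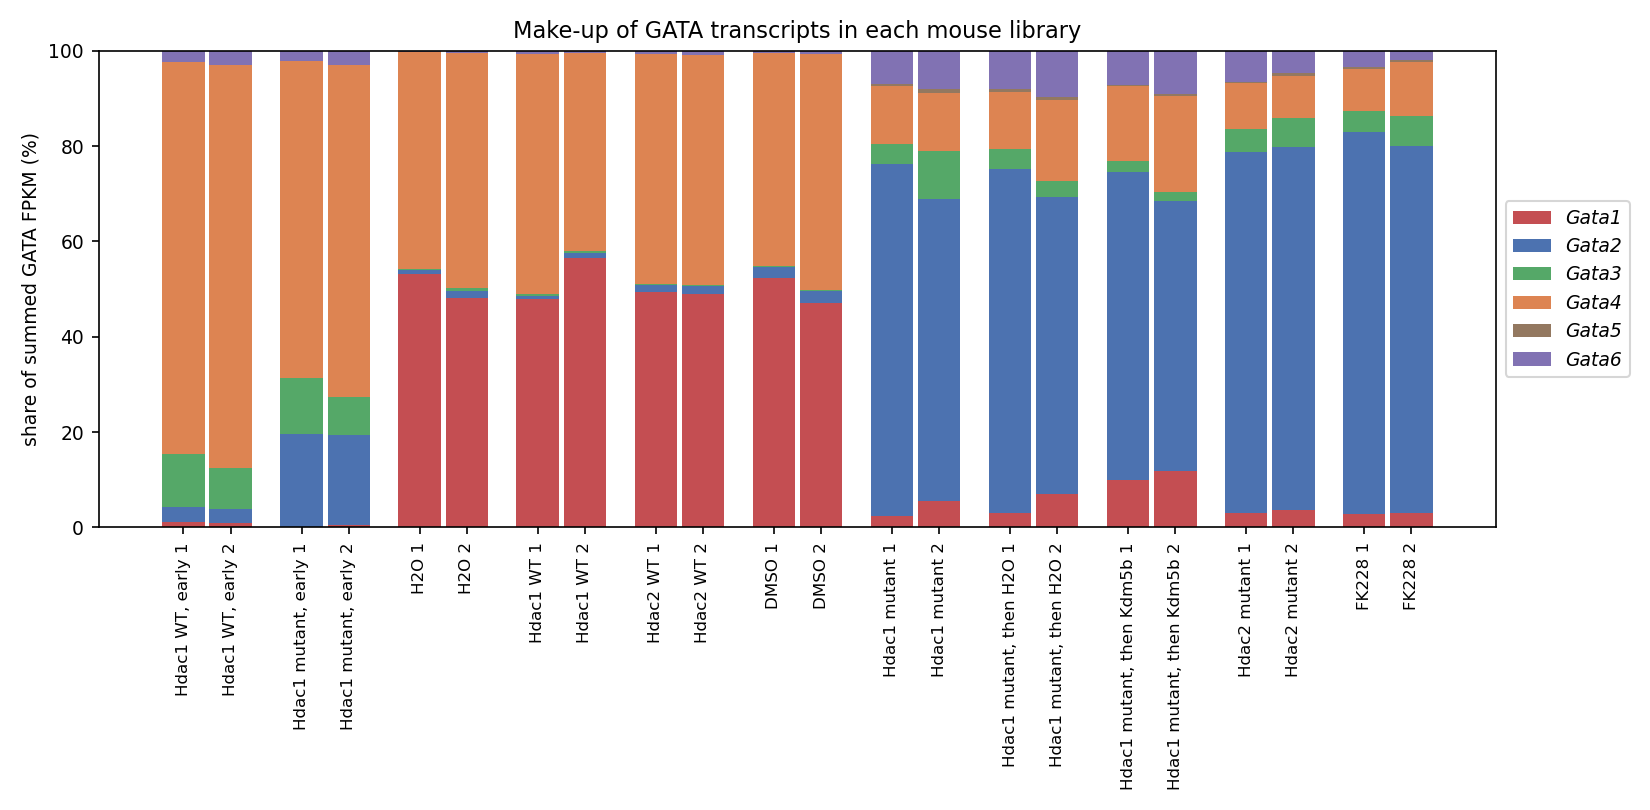
Share of each GATA factor in the summed FPKM of the 6 genes (percent, vertical axis) in each of the 22 mouse libraries, grouped by injection or treatment and stage. Gata1 and Gata4 fill at least 96.5% of every late control library, Gata2 at least 56.7% of every HDAC-perturbed library, and Gata4 at least 66.4% of every early library.

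Gata1 (GRCm38 chromosome X, 7959260 to 7978071, minus strand, protein coding), the red cell factor, was read first in the stage series. In early 2-cell embryos with Hdac1 WT mRNA it was at 0.326 and 0.325 FPKM, and with mutant mRNA it was listed at 0 in replicate 1 and at 0.205 in replicate 2. Late control libraries held 81.0 and 62.0 FPKM after water, 68.5 and 79.5 after Hdac1 WT, 92.8 and 115 after Hdac2 WT and 99.0 and 94.5 in DMSO. All of these 8 libraries stood far above the early ones. The perturbed libraries held 3.36 and 8.32 FPKM after Hdac1 mutant, 3.80 and 6.91 after Hdac1 mutant then water, and 8.80 and 10.1 after Hdac1 mutant then Kdm5b. They held 6.45 and 8.08 after Hdac2 mutant and 5.85 and 6.75 in FK228. The perturbed libraries lay between the early and the late control libraries and overlapped neither. By group mean the late controls ran from Hdac2 WT (104 ± 15.4) through DMSO and Hdac1 WT to water (71.5 ± 13.5). Hdac2 WT and DMSO overlapped each other, as did Hdac1 WT and water.

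Gata2 (chromosome 6, 88193891 to 88207032, plus strand, protein coding), the factor of blood progenitors and trophectoderm was low in the late controls, where Gata1 was high, and high in the perturbed groups. Its late control libraries held 1.06 and 2.10 FPKM after water, 0.891 and 1.66 after Hdac1 WT, 2.75 and 4.37 after Hdac2 WT and 4.73 and 5.07 in DMSO. With perturbed deacetylases it was at 163 and 170 FPKM after Hdac2 mutant, 161 and 171 in FK228 and 99.4 and 93.1 after Hdac1 mutant. After Hdac1 mutant followed by water it was at 89.96 and 61.4, and followed by Kdm5b at 56.7 and 48.4. The lowest perturbed library was above the highest late control library, and Hdac2 mutant and FK228 embryos could not be ordered, since their libraries overlapped. The steps down from FK228 to Hdac1 mutant, to Hdac1 mutant then water and to Hdac1 mutant then Kdm5b had no overlap of neighbours. Hdac1 itself was at 4782 ± 240 FPKM after Hdac1 mutant alone. It was at 861 ± 79.0 with water and 842 ± 24.6 with Kdm5b as the second injection (SD, n = 2). The part of this difference in the order was not tested. In early embryos Gata2 was at 0.938 and 0.888 FPKM after Hdac1 WT and 6.82 and 6.55 after Hdac1 mutant mRNA.

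Gata3 (chromosome 2, 9857078 to 9890034, minus strand, protein coding), known from T cells and trophectoderm, was low in all late controls, at 0.235 to 0.690 FPKM. It was at 5.81 and 14.8 FPKM after Hdac1 mutant, 10.2 and 13.5 after Hdac2 mutant, 8.87 and 14.3 in FK228, 5.12 and 3.36 after Hdac1 mutant then water and 2.10 and 1.58 after Hdac1 mutant then Kdm5b. The Hdac1 mutant libraries lay far apart from each other, and the first 3 of these groups overlapped. Early embryos held 3.28 and 2.75 FPKM after Hdac1 WT and 4.07 and 2.78 after Hdac1 mutant mRNA, above every late control. Gata3 overlaps Gm13256 and 4930412O13Rik on the other strand and 9230102O04Rik on its own, which reached at most 1.32, 1.25 and 1.05 FPKM; the labels describe no strand-marking step, so reads of overlapping genes cannot be told apart.

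Gata4 (chromosome 14, 63198922 to 63271692, minus strand, protein coding), the endoderm and heart factor, was the only member above 20 FPKM in early embryos. It was at 24.4 and 27.1 FPKM there after Hdac1 WT and 23.0 and 24.2 after Hdac1 mutant mRNA. In late controls it was at 69.1 and 63.5 after water, 71.8 and 58.5 after Hdac1 WT, 90.7 and 113 after Hdac2 WT and 84.5 and 99.6 in DMSO. Each late control library exceeded each early one, and the order of the late control groups was Hdac2 WT, DMSO, water and Hdac1 WT, with overlap within the first pair and within the second. The 10 perturbed libraries held 13.7 to 25.1 FPKM with a median of 17.5, near the early level of 23.0 to 27.1 and overlapping it, with FK228 and Hdac2 mutant embryos (21.4 ± 5.14 and 20.1 ± 0.685) above the 3 groups with Hdac1 mutant mRNA (15.4 to 17.2 as group means). FK228 replicate 1, at 17.8 FPKM, lay within the range of the Hdac1 mutant libraries.

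Gata5 (chromosome 2, 180325133 to 180334699, minus strand, protein coding), which acts in heart and endoderm, was at the edge of detection. It was listed at 0 in both libraries of the water, Hdac1 WT (early and late) and DMSO groups, and at 0.0251 and 0.0210 FPKM after Hdac2 WT. It was at 0.763 and 1.37 FPKM after Hdac1 mutant, 0.710 and 1.41 after Hdac2 mutant and 0.457 and 1.10 in FK228. A second injection after Hdac1 mutant left 0.745 and 0.428 with water and 0.172 and 0.226 with Kdm5b. Every perturbed library was above every late control library, but only 3 libraries reached 1 FPKM, so Gata5 was tested only because of those groups. Its antisense neighbour Gata5os reached at most 0.0601 FPKM.

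Gata6 (chromosome 18, 11052064 to 11085635, plus strand, protein coding), a driver of primitive endoderm, was at 0.456 to 1.90 FPKM in late controls and 0.687 to 1.05 in early embryos, and these ranges overlapped. After Hdac2 mutant it was at 13.9 and 10.5 FPKM, after Hdac1 mutant at 9.29 and 11.7, after Hdac1 mutant then water at 9.97 and 9.67, after Hdac1 mutant then Kdm5b at 6.39 and 7.83 and in FK228 at 7.03 and 4.13. All 10 perturbed libraries were above all late controls. FK228 embryos were the lowest of the perturbed groups by mean and overlapped with Hdac1 mutant then Kdm5b.

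**Figure D2:**
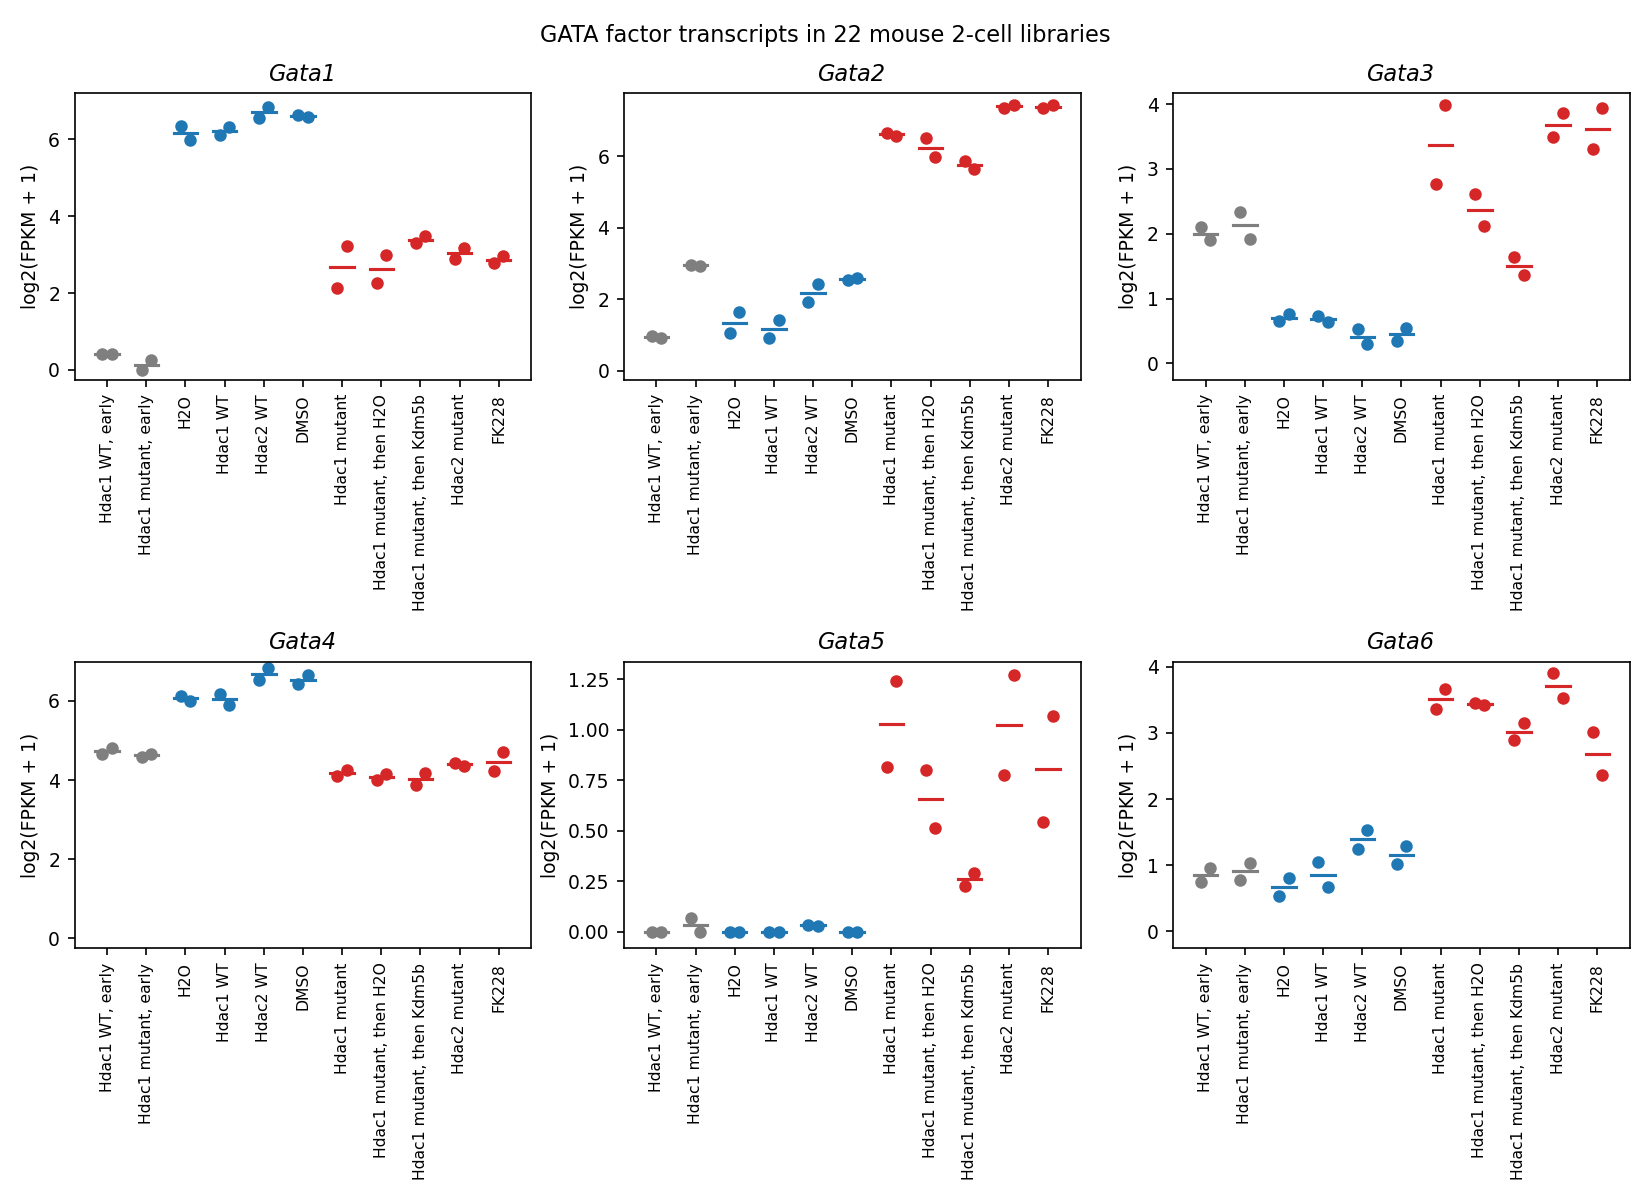
Level of each GATA factor as log2(FPKM + 1) (vertical axis) in each of the 22 mouse libraries, 1 point per library and a bar at the mean of the 2 libraries of a group; early groups are grey, late controls blue and HDAC-perturbed groups red, and the axes differ between genes. Gata1 and Gata4 are high in the late controls, and Gata2, Gata3, Gata5 and Gata6 are higher in the HDAC-perturbed groups.

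The effect of mutant Hdac2 was tested against Hdac2 WT, which shares the injection. Gata2 rose 46.8-fold (log2 fold change 5.22 ± 0.23 SE, adjusted p = 7.70e-10, limma), and Gata3 and Gata6 rose 35.3-fold and 7.47-fold. Gata1 fell 14.3-fold and Gata4 5.07-fold. Of the 5 members other than Gata5 all 5 were called, where 53.0% of the 17336 genes tested were called, 30.8% higher and 22.2% lower. Gata5 passed the filter only through perturbed libraries, so its higher level there is a description and enters no count. A call was an adjusted p under 0.05 in limma on log2(FPKM + 1), adjusted by the Benjamini-Hochberg method over all genes tested. On that scale Gata3 rose by 3.26 ± 0.33 (adjusted p = 6.98e-07) and Gata6 by 2.32 ± 0.25 (adjusted p = 1.11e-06), while Gata1 fell by 3.66 ± 0.29 (adjusted p = 7.05e-08) and Gata4 fell by 2.28 ± 0.17 (adjusted p = 4.24e-08). Gata5 was at 0.0251 and 0.0210 FPKM after Hdac2 WT and 0.710 and 1.41 after Hdac2 mutant. With 53.0% of all genes called in this comparison, a call by itself sets no member apart, and all genes had a median log2 fold change of 0.14.

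FK228 acts on the embryo's own enzymes, without injected mRNA, and the 5 members other than Gata5 were all called against DMSO, each in the direction seen with Hdac2 mutant (57.2% of genes called, 31.0% higher and 26.3% lower). The libraries of this comparison enter no other comparison of 2 groups. Gata2 rose 33.8-fold (log2 fold change 4.82 ± 0.23, adjusted p = 5.71e-10, limma), Gata3 31.2-fold (3.17 ± 0.33, adjusted p = 7.11e-07) and Gata6 4.52-fold (1.53 ± 0.25, adjusted p = 6.43e-05). Gata1 fell 15.4-fold (−3.75 ± 0.29, adjusted p = 3.64e-08) and Gata4 4.30-fold (−2.07 ± 0.17, adjusted p = 7.29e-08). Gata5 was listed at 0 in both DMSO libraries and stood at 0.457 and 1.10 FPKM with FK228.

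Whether mutant Hdac2 and FK228 moved the members by different amounts was tested as the difference of the effects. Of the 5 members other than Gata5, 0 were called by limma, where 2.08% of all genes were called, 1.48% higher and 0.594% lower. Of these members 1, Gata6, had an unadjusted p under 0.05, and the share of all genes below that value was not counted. For Gata6 the difference was 0.79 ± 0.35 (adjusted p = 0.240, 95% interval 0.05 to 1.53), and for Gata2 0.40 ± 0.32 (adjusted p = 0.565, 95% interval −0.28 to 1.09). Gata1 and Gata4 differed by 0.08 ± 0.41 (95% interval −0.80 to 0.96) and −0.21 ± 0.24 (95% interval −0.73 to 0.31). A missed threshold with intervals of this width does not show equal effects.

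Mutant Hdac1 was compared with Hdac1 WT and with water, and these differences are given without a test because the family was chosen with them in view. In late embryos they were 5.44 for Gata2, 2.69 for Gata3 and 2.66 for Gata6 on the log2 scale against Hdac1 WT, and −3.55 for Gata1 and −1.86 for Gata4. In that comparison 52.1% of all genes were called, from which nothing is read about the members. Against water, which shares the mutant libraries (54.1% of genes called, 29.4% higher and 24.8% lower), they were 5.26, 2.67, 2.84, −3.50 and −1.89 for the same genes. In early embryos Gata2 was 2.0057 higher with mutant than with WT mRNA, and the other members lay within 0.28 of 0, in a comparison where 0.560% of genes were called, 0.231% higher and 0.329% lower. At the early stage Gata2 was thus the only member whose difference was larger than 0.28.

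The embryos injected a second time with water after Hdac1 mutant mRNA gave libraries of their own, while their controls, the water-injected zygotes, are shared with the comparison of Hdac1 mutant and water. Because those water libraries were in view when the family was chosen, the differences are given without a test. The labels name a second injection only for the mutant embryos, and its part in the differences was not tested. They were 4.90 ± 0.23 for Gata2, 2.76 ± 0.25 for Gata6 and 1.66 ± 0.33 for Gata3 on the log2 scale, and −3.54 ± 0.29 for Gata1 and −1.99 ± 0.17 for Gata4 (SE). Over all genes 52.6% were called, 34.5% higher and 18.1% lower (65.5% of calls higher, 47.7% under quantile normalization), from which nothing is read about the members.

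Kdm5b mRNA given after Hdac1 mutant was compared with water given after it. In the Kdm5b libraries Gata1 was 0.76 ± 0.29 higher on the log2 scale (adjusted p = 0.224, limma, 95% interval 0.14 to 1.38) and Gata2, Gata3 and Gata6 were −0.50 ± 0.23 (95% interval −0.98 to −0.01), −0.87 ± 0.33 (95% interval −1.57 to −0.17) and −0.42 ± 0.25 (95% interval −0.94 to 0.10) from the water libraries. Of the 5 members other than Gata5, 0 were called by limma, where 1.04% of all genes were called, 0.415% higher and 0.629% lower. Of these members 3 had an unadjusted p under 0.05, Gata1, Gata2 and Gata3. The share of all genes with an unadjusted p under 0.05 was not counted, so this count has no background beside it. Libraries of Gata1, Gata2, Gata3 and Gata6 did not overlap between the groups. The share of all genes without overlap was not counted, so nothing is read from this. Gata4 was at −0.05 ± 0.17 (95% interval −0.42 to 0.31). The 4 differences of Gata1, Gata2, Gata3 and Gata6 pointed toward the late control level but none passed the test, and with Kdm5b Gata2 was still at 52.5 ± 5.85 FPKM and Gata1 at 9.47 ± 0.935.

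**Figure D3:**
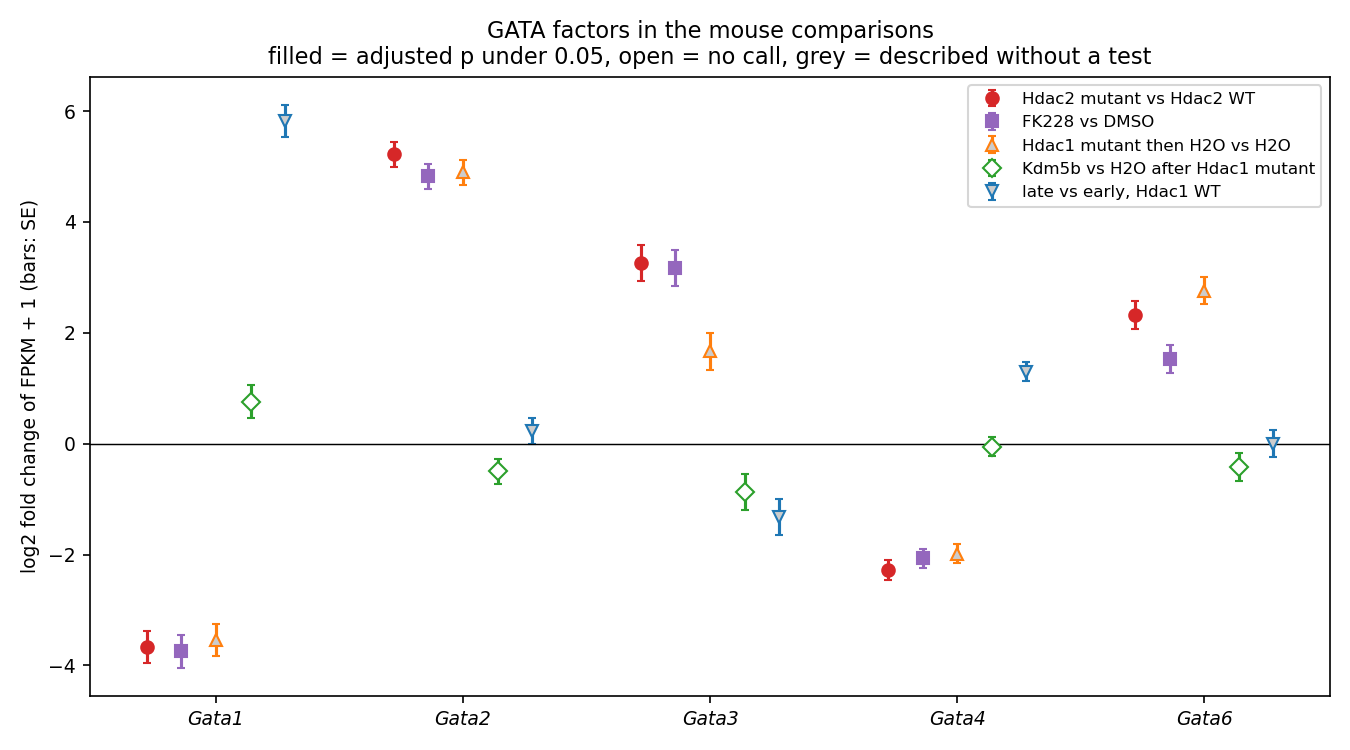
Log2 fold change (vertical axis) of 5 GATA factors (horizontal axis) in 5 mouse comparisons, as points with bars of 1 SE from limma on log2(FPKM + 1); coloured filled points have an adjusted p under 0.05, open points do not, and grey points are described without a test. Gata5, listed at 0 in most control libraries, is left out; Gata2, Gata3 and Gata6 lie above 0 and Gata1 and Gata4 below 0 in the Hdac2 mutant, FK228 and Hdac1 mutant then water comparisons, and none is filled for Kdm5b against water.

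The step from early to late was read in Hdac1 WT embryos, whose libraries are also the controls of the Hdac1 mutant comparisons in view when the family was chosen, and it too is described without a test. Gata1 was 5.82 ± 0.29 (SE) higher in late embryos on the log2(FPKM + 1) scale, at 74.0 ± 7.83 against 0.326 ± 0.00111 FPKM (SD, n = 2), and Gata4 was 1.30 ± 0.17 higher. Gata3 differed by −1.32 ± 0.33. Over all genes 56.8% were called, 28.8% higher and 28.1% lower. Gata2 was 0.23 higher and Gata6 was at 0.816 ± 0.182 FPKM in early and 0.823 ± 0.337 in late embryos. Gata1 and Gata4 were also the members that fell with Hdac2 mutant mRNA and with FK228. The share of all genes that rose in this step and fell there was not counted, so nothing particular to these members is read from it.

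In bovine embryos the family stood otherwise. GATA2 and GATA6 were the members of high level in DMSO, at 43.2 and 56.6 FPKM and at 52.0 and 43.8 FPKM, while GATA3 was at 3.89 and 4.53, GATA4 at 1.18 and 3.39 and GATA5 was listed at 0. With FK228, GATA2 was at 99.7 and 105 FPKM and GATA6 at 6.65 and 4.11, and neither gene overlapped between the groups. GATA2 rose 2.05-fold (log2 fold change 1.03 ± 0.18, adjusted p = 0.00196, limma) and GATA6 fell 8.90-fold (−2.96 ± 0.23, adjusted p = 5.85e-05). Of 4 members tested 2 were called, 1 each way, where 49.6% of 12590 genes were called, 22.2% higher and 27.4% lower.

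GATA3 was at 5.23 and 5.64 FPKM with FK228 and passed no test (0.31 ± 0.21, adjusted p = 0.251, limma, 95% interval −0.17 to 0.79), although its libraries did not overlap. GATA4 was at 1.48 and 1.24 with FK228 (−0.39 ± 0.32, adjusted p = 0.333), and its DMSO libraries decided the value. Without DMSO replicate 2 the difference turned to 0.11 (adjusted p = 0.774) and without DMSO replicate 1 it was −0.90 (adjusted p = 0.0340), where the lone DMSO library is assumed to vary like the FK228 pair. GATA5, at 0.0561 and 0.0291 with FK228, was below the filter and not tested. The mouse and bovine values were fitted apart and the embryos differ in stage and time, so the species are set side by side and no difference between them was tested.

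**Figure D4:**
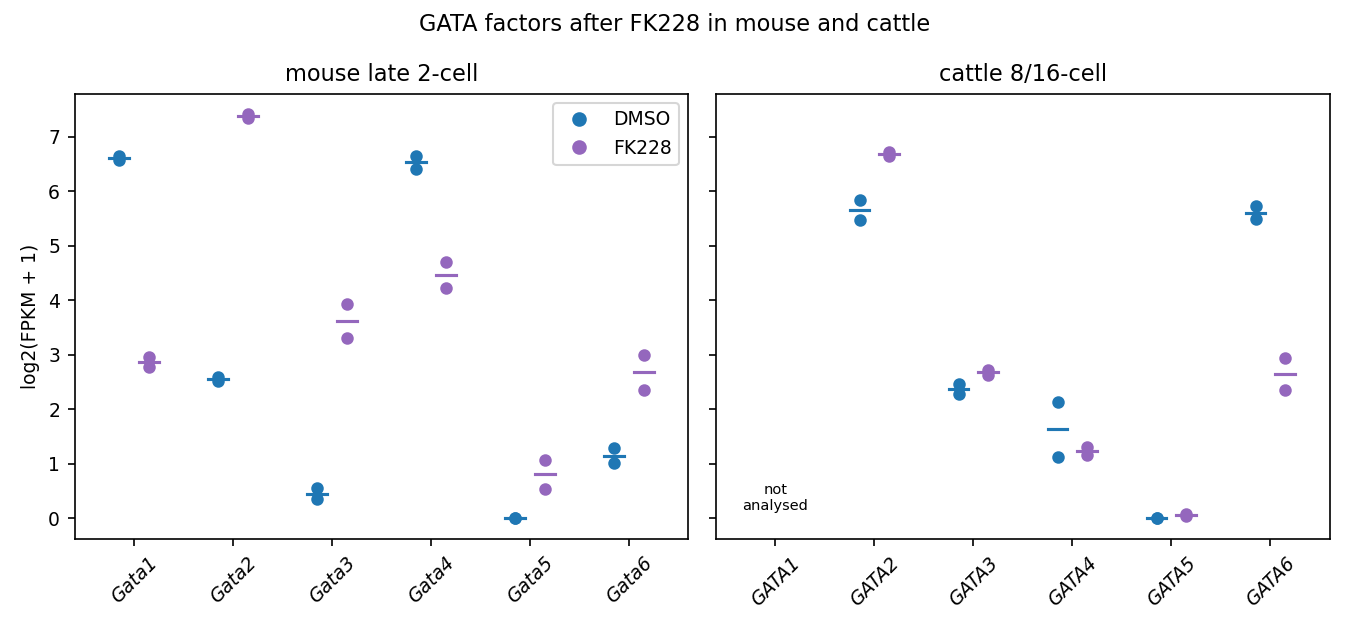
Level of each GATA factor as log2(FPKM + 1) (vertical axis) in DMSO and FK228 libraries of mouse late 2-cell (left) and bovine 8/16-cell embryos (right), 1 point per library and a bar at the mean; GATA1 was not analysed in cattle. Gata2 is higher with FK228 in both species, while Gata6 is higher with FK228 in mouse and GATA6 lower in cattle.

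The partners and known targets of the GATA factors were read from lists of genes. Genes near 0 in controls can pass the filter only if another group is high, so such lists lean toward higher members, and each count is read beside the share of all genes called, given above for each comparison. Of 13 tested cofactors and blood partner factors, 8 rose and 3 fell with Hdac2 mutant mRNA (median log2 fold change 1.17, against 0.14 for all genes) and 8 and 3 with FK228 (0.89 against 0.15). Spi1, a factor of myeloid cells, was at 15.5 and 20.3 FPKM after Hdac2 mutant against 0.428 and 0.743 after WT (3.57 ± 0.23, adjusted p = 1.07e-08, limma). Lmo2, a bridge between Gata1 and Tal1, rose by 2.79 ± 0.38 and Lmo4 by 2.91 ± 0.26. With FK228, Runx1, a factor of blood stem cells, rose by 3.15 ± 0.25, while Nfe2, a partner of Gata1 at globin genes, fell by 1.91 ± 0.23.

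Red cell and megakaryocyte genes are those Gata1 is known to drive. While Gata1 fell with Hdac2 mutant mRNA, 4 of 10 tested red cell genes rose and 1 fell (median 0.90), so 5 of 10 were called beside 53.0% of all genes. With FK228 6 rose and 0 fell (median 1.09), beside 57.2% of all genes called, and both shares are near that of all genes. The alpha globin genes Hba-a1 and Hba-a2 rose by 4.07 ± 0.40 and 4.79 ± 0.40 after Hdac2 mutant, from 2.67 and 2.61 to 57.8 and 62.6 FPKM for Hba-a1; the genes are near-identical copies and their split of reads is uncertain. Epor, the erythropoietin receptor, rose by 2.05 ± 0.27 after Hdac2 mutant and 2.17 ± 0.27 with FK228. Markers of blood cells moved too: their summed level was 3.02 to 8.21 FPKM in late controls and 38.4 to 67.3 in HDAC-perturbed libraries, with 9 of 12 markers measured. Cd74 (25.6 to 43.8 FPKM in perturbed libraries) and Lyz2 (3.42 to 13.2) made up much of the sum, and the defining markers Ptprc and Fcer1g were at 0 in all late controls and at most 0.394 FPKM in perturbed libraries. Summed cumulus and granulosa cell markers were at 33.3 to 70.8 FPKM in late controls and 13.3 to 30.1 in perturbed libraries. Amhr2 made up most of the sum in late controls (31.0 to 64.9 FPKM, against 5.51 to 22.4 in perturbed libraries). Foxl2 went the other way, from 0 to 5.21 FPKM in late controls and from 2.42 to 16.8 in perturbed libraries. Fshr and Lhcgr were at 0 in late controls and at most 0.0700 FPKM in perturbed ones. The part of other cells in the GATA results was not tested.

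Trophectoderm factors and keratins, the setting of Gata2 and Gata3, rose in 12 of 16 and fell in 1 with Hdac2 mutant (median 2.38) and with FK228 12 rose and 1 fell (median 1.86). Bmp4, a signal of early lineages, was at 54.9 and 62.7 FPKM after Hdac2 mutant against 0.221 and 0.184 after WT (5.63 ± 0.26, adjusted p = 9.86e-10, limma). Eomes, a trophoblast factor, rose by 3.75 ± 0.24 and the keratin gene Krt18 by 3.63 ± 0.44. The 1 gene of this list that fell was Tead4, which acts at the head of trophectoderm fate, by 0.84 ± 0.23 after Hdac2 mutant (adjusted p = 0.00542) and by 1.29 ± 0.23 with FK228 (adjusted p = 0.000150); it is named here after its values were seen. Of 14 primitive endoderm genes, the setting of Gata4 and Gata6, 13 rose and 0 fell with Hdac2 mutant (median 1.205), and 12 rose and 0 fell with FK228 (median 1.52). Sox17, an endoderm factor, rose by 4.56 ± 0.30 and 4.21 ± 0.30, and Foxa2 by 3.92 ± 0.33 and 3.72 ± 0.33, in the order Hdac2 mutant and FK228. Of 10 heart factors that work with Gata4 to Gata6, 8 rose and 0 fell in each of these comparisons (medians 2.19 and 0.99). Nkx2-5, a cardiac factor that binds Gata4, rose by 3.38 ± 0.21 after Hdac2 mutant, and Hand1 by 3.22 ± 0.32. After Hdac2 WT, Nkx2-5 was at 0.300 and 0.444 FPKM and Foxa2 at 0.441 and 0. Genes this low in controls could hardly fall, so the absence of falling genes in these lists is not read as a result.

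Genes with a GATA-type zinc finger outside the family gave 1 higher and 4 lower of 9 with Hdac2 mutant (median 0.14) and 3 and 3 with FK228 (median −0.15). Mta2, a subunit of the deacetylase complex NuRD, fell from 234 and 266 to 32.8 and 27.1 FPKM with Hdac2 mutant (−3.02 ± 0.17, adjusted p = 2.77e-09, limma), and by 3.63 ± 0.17 with FK228. Mta3, another NuRD subunit, fell by 1.66 ± 0.15 after Hdac2 mutant, and Gatad1 rose by 1.58 ± 0.26. From early to late in Hdac1 WT embryos Mta2 rose by 5.17 ± 0.17, from 4.32 and 6.31 to 225 and 221 FPKM. It was the 1 gene of this list that rose in that step, while 6 of 9 fell (median −0.96), among them Trps1, a GATA-type repressor, by 2.52 ± 0.19 and Mta3 by 1.22 ± 0.15. After Hdac1 mutant mRNA, Mta2 was higher with Kdm5b than with water, by 0.77 ± 0.17 (adjusted p = 0.0433), and Krt8 fell by 1.41 ± 0.22 (adjusted p = 0.0132). These were the only called members of the 6 lists in that comparison. Both calls were lost when only the groups compared were fitted (adjusted p = 0.101 and 0.0680) and without the first water library (0.339 and 0.148) or either Kdm5b library (0.127 and 0.289 for Mta2, 0.0827 and 0.107 for Krt8), and that of Mta2 also without the second water library (0.0724).

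The lists were also counted in the comparisons with Hdac1 mutant mRNA. After Hdac1 mutant then water, 8 cofactors, 4 red cell genes, 12 trophectoderm genes, 10 primitive endoderm genes and all 10 heart factors rose, and 1, 1, 0, 0 and 0 fell. The lean of the lists toward higher members holds here too. Against Hdac1 WT in late embryos (52.1% of genes called, 30.5% higher and 21.6% lower; 58.5% of calls higher, 48.0% under quantile normalization), the same lists gave 8, 4, 13, 11 and 9 higher and 1, 1, 1, 0 and 0 lower. Between early and late Hdac1 WT embryos the same lists gave 2, 1, 6, 0 and 2 higher and 4, 0, 3, 6 and 1 lower. Tead4 rose by 4.05 ± 0.23 in that step and Dab2, an endocytic adaptor of primitive endoderm, fell by 3.22 ± 0.19. In cattle FK228 gave 4 higher and 6 lower of 14 trophectoderm genes and 2 and 3 of 10 primitive endoderm genes, beside 49.6% of all bovine genes called; the count of primitive endoderm genes called is near that share. Mouse gave 12 and 1 of 16 and 12 and 0 of 14, and the species were not tested against each other. PDGFRA and SPARC, genes of primitive endoderm, fell by 1.55 ± 0.21 and by 3.73 ± 0.32 in the bovine embryos, while SOX17 of the same list, named after its values were seen, rose by 0.72 ± 0.22. Of 12 bovine cofactors 4 rose and 3 fell, ZFPM1, the partner known as FOG1, by 1.96 ± 0.24 upward and LMO2 by 1.96 ± 0.23 downward.

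**Figure D5:**
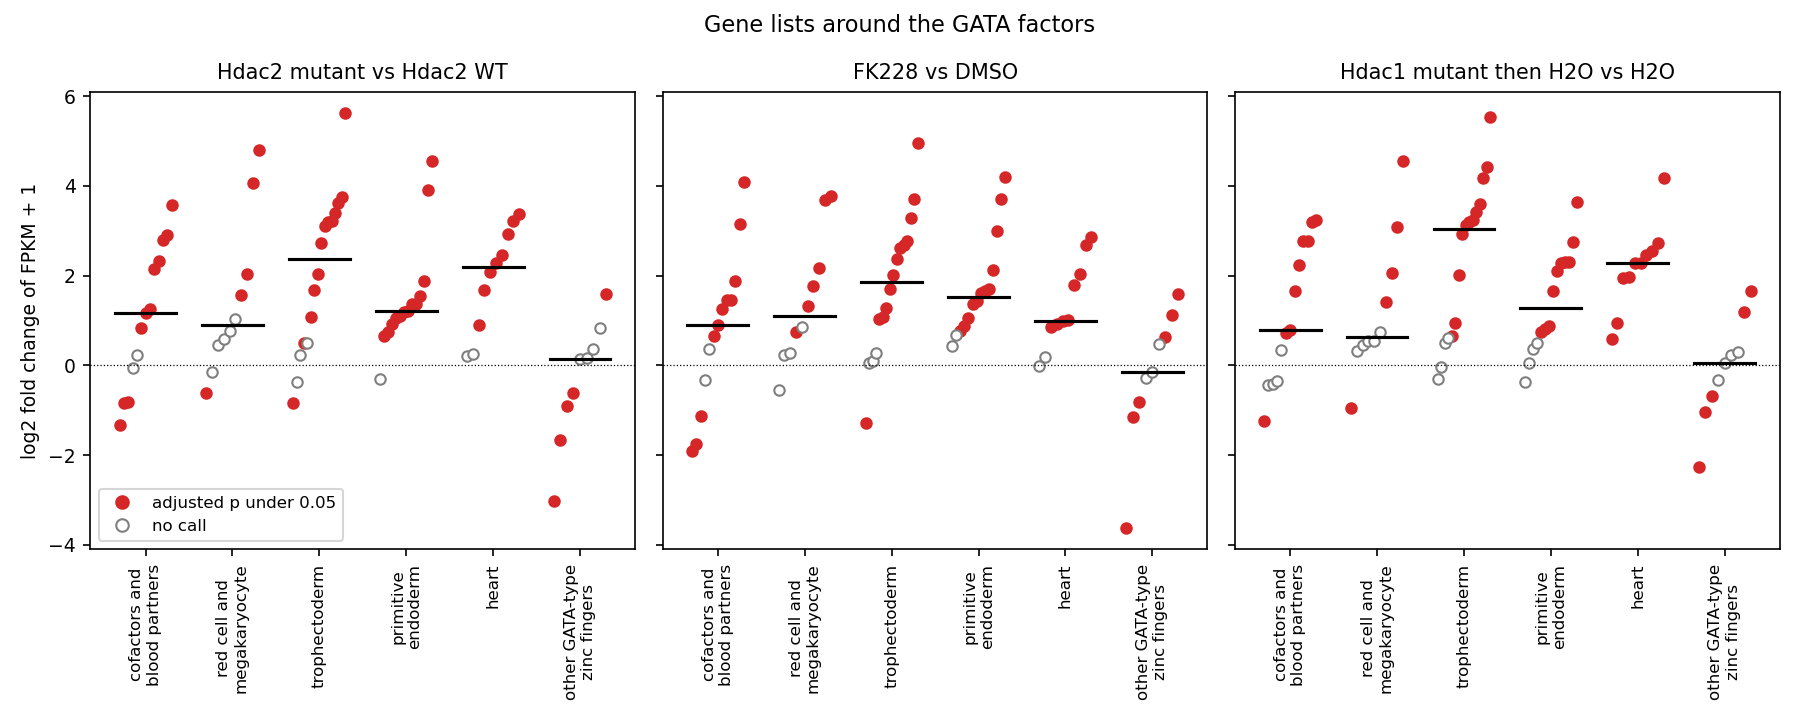
Log2 fold change (vertical axis) of each tested gene in the 6 lists around the GATA factors, with a panel for each of 3 mouse comparisons; points are genes, filled where the adjusted p was under 0.05, and bars are list medians. Most trophectoderm, primitive endoderm and heart genes lie above 0, with list medians from 0.99 to 3.03, while the other GATA-type zinc finger genes lie on both sides of 0. Genes near 0 in controls could hardly fall, so these lists lean toward higher values.

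The genes around each member gave mixed counts. Within 100 kb of Gata1 lay 12 protein-coding genes on GRCm38, 10 of them tested; with Hdac2 mutant 0 rose and 1 fell, with FK228 1 rose and 3 fell, and from early to late 6 rose and 1 fell, beside 53.0%, 57.2% and 56.8% of all genes called. Of the 2 tested genes near Gata2, Rpn1 was called higher with Hdac2 mutant and with FK228, and Eefsec was called lower with FK228 and not called with Hdac2 mutant. Of 3 near Gata4, 2 fell with Hdac2 mutant, with FK228 and with Hdac1 mutant then water, and from early to late 2 rose and 1, Neil2, fell. In that order 53.0%, 57.2%, 52.6% and 56.8% of all genes were called. With 2 or 3 tested genes near a member, nothing is read from these counts. No protein-coding gene lay within 100 kb of Gata6.

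Over the 22 mouse libraries the levels of Gata2 and Gata6 correlated with r = 0.93 on the log2(FPKM + 1) scale, Gata2 and Gata5 with 0.88 and Gata1 and Gata4 with 0.81, while Gata2 and Gata4 gave −0.72 and Gata1 and Gata2 −0.32. These values describe 11 groups of 2 libraries, share the same controls and carry no test. Genes among the 3 most like each member by Pearson's r among 14471 with a defined name were Xylb, Slc39a4 and Itpkc for Gata1 (0.995, 0.990 and 0.989), Unc93b1 and Pax6 for Gata2 (0.990 and 0.989) and Stox2, Usp2 and Slc10a4l for Gata3 (0.954, 0.953 and 0.947). For Gata4 they were Kat2a, Tmem231 and Alkbh1 (0.973, 0.970 and 0.961), for Gata5 Znrf4, Nat8 and Chrna4 (0.983, 0.976 and 0.959) and for Gata6 Srms, Rnf39 and Anxa3 (0.9746, 0.974 and 0.971).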

How the data were processed

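The 26 libraries were grouped by GEO's labels. RNA came from whole embryos, and PCR-amplified libraries were made from oligo(dT)-selected mRNA, per the labels' protocols. The values were FPKM per gene and library, deposited by the authors in a table per species. The submitters' processing notes list Trimmomatic and HISAT2, featureCounts and Cufflinks, and also DESeq2, on the builds GRCm38 and ARS-UCD1.2; their versions and roles are not stated there. Because FPKM are scaled to the library total, abundant genes that change shift all others, and RNA per embryo is not seen. No count model was run, since FPKM are not counts. The number of per-sample columns left without a sample was 0.

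The filter, at least 1 FPKM in 2 or more libraries, left 17336 mouse and 12590 bovine genes. A linear model in limma 3.58.1 (R 4.3.3) was fitted to log2(FPKM + 1) with a variance trend and a coefficient per group, over all 22 mouse libraries (11 residual degrees of freedom) and separately over 4 bovine ones (2 degrees of freedom). Tests were two-sided and adjusted by Benjamini-Hochberg over the genes tested; the fit was tested on simulated data. Of 7 comparisons fitted as tests for the members, 2 share a group with those in view when the family was chosen and are described without p-values, as are 3 more. All 6 mouse members passed the filter, Gata5 only through HDAC-perturbed libraries, and 4 of 5 bovine ones did. The scale understates the change of low genes. The labels do not say that replicates came from separate cultures, so p-values measure the spread between libraries, which may be technical. The members and lists were chosen with earlier results of these data known. Named genes were the members everywhere, up to 3 called genes per list and comparison by size of change with groups that did not overlap, and the 3 genes most like each member with clone and predicted symbols left out; some items that these rules name are not reported here. Relative depth was estimated from ratios of low values between library pairs, and 97.8% of 231 mouse pairs gave a single depth per library. Coordinates of genes are those of GENCODE on GRCm38. Alternatives covered the pseudocount, the filter, scaling, the libraries fitted, the replicate number as a block and each library left out. Python 3.11.15, pandas 2.3.3 and matplotlib 3.10.9 were used for levels and plots.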

Additional observations from a re-analysis of the deposited data

Results flagged for a closer look

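Gata6 moved in opposite directions with FK228 in the 2 species. In mouse late 2-cell embryos its log2 fold change against DMSO was 1.53, with both FK228 libraries above both DMSO libraries. In bovine 8/16-cell embryos that of GATA6 was −2.96, with both FK228 libraries below both DMSO libraries. The difference was not tested, because the species were fitted apart and the embryos differ in stage, in hours after fertilization and in the level of the gene in DMSO.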

How the results depend on the processing

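Of 486 member values under alternatives, 461 kept their direction and side of the threshold and 17 changed sign, all of them in comparisons where neither value was called. Of the others, 7 lost a call, all of them values of Gata5, and 1, of GATA4 in cattle, gained a call. These values include Gata5. They also include late against early and Hdac1 mutant then water against water, which are described above without a test. With 1 library left out, the log2 differences of these members ran from −0.90 to 0.11 for GATA4 in cattle and −0.21 to 0.0996 for Gata4 with Kdm5b. From early to late they ran from −0.0172 to 0.47 for Gata2 and −0.19 to 0.19 for Gata6. For the Hdac2 mutant effect minus the FK228 effect they ran from −0.0681 to 0.23 for Gata1, −0.22 to 0.41 for Gata3, −0.45 to 0.0261 for Gata4 and −0.0796 to 0.45 for Gata5. The last difference of Gata1 was −0.0714 under median-ratio scaling. Without Gata5, 5 members were called with Hdac2 mutant and 5 with FK228, beside 53.0% and 57.2% of all genes. In the Kdm5b comparison and in the difference of effects 0 were called, beside 1.04% and 2.08%. In cattle 2 were called, beside 49.6%. Gata5, left out of these counts of called members, was not called under quantile normalization with Hdac2 mutant and FK228 (adjusted p = 0.0596 and 0.0667, limma). Its log2 difference with FK228 was 0.81, and 0.54 without FK228 replicate 2. The count over all genes for Kdm5b against water was 181, and 12 and 52 with pseudocounts of 0.1 and 0.5, 84 under median-ratio scaling, 108 under quantile normalization, 2 with only the groups compared and 7 to 129 with a library left out. The count for the difference of Hdac2 mutant and FK228 effects was 360, and 158 with a pseudocount of 0.1 and 45 to 507 with a library left out. Median-ratio scaling moved the share of higher calls from 39.8% to 23.8% and from 71.4% to 45.3% in these 2 comparisons, and quantile normalization gave 52.1% in the second. Over all genes the median log2 fold change came to 0.14 with Hdac2 mutant, 0.15 with FK228 and 0.25 with Hdac1 mutant then water, and −0.05, −0.04 and −0.09 under quantile normalization. Hand1 lost its call between early and late without Hdac1 WT early replicate 1 or 2 or late replicate 2, and with no filter on low values (adjusted p = 0.0604, limma). The labels tie same-numbered libraries to no shared litter or day, and 3 of 55 pairs of mouse groups had a correlation of same-numbered deviations over 0.1 (median 0.0230; 0.233 for the bovine pair). With the replicate number as a block, the 5 members other than Gata5 stayed called with Hdac2 mutant and with FK228. Over all 17336 genes 9200 and 9937 were then called. GATA2 and GATA6 stayed called in cattle, beside 6897 of 12590 genes. In the Kdm5b comparison and in the difference of effects 0 members were called with the block. In the Hdac1 mutant comparison it gave 53 called list genes against 52. Absolute depth is unknown, so no counting error could be given for Gata5 or other low genes.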
